A study of Mus musculus with 15 samples.

Results

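Myrip and 9 genes that work with the small GTPase RAB27 were followed in tumour cells sorted from a mouse model of basal cell carcinoma of the skin. The 10 genes are Myrip, Mlph, Rab27a, Rab27b, Sytl1, Sytl2, Sytl4, Sytl5, Myo5a and Myo7a, out of 36528 genes listed in the deposited data, and all 10 passed the filter on low counts that left 18751 genes for testing. Myrip was chosen by its low levels at 6 and 14 days of treatment relative to control, so its values in those contrasts are given as a description with no test. The other 9 were listed by function, as effectors, motors and GTPases of the same pathway, with earlier results of these data known.

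Tumour cells of 15 libraries were compared in 3 groups: 3 libraries at 14 days of vismodegib, 8 libraries at 6 days of vismodegib, and 4 libraries labelled control, which the series' design text calls untreated. The titles of the control samples hold the abbreviation MCT, which no label explains. Vismodegib inhibits SMO, the transducer of Hedgehog signalling. Every group, control included, carried K14Cre-ER, Ptch1fl/fl, p53fl/fl and Lgr5GFP. K14Cre-ER is an inducible Cre driven by a basal keratinocyte promoter. Deletion of both conditional alleles is therefore limited to cells in which that promoter was active at induction, and to their descendants. Lgr5GFP marks cells that express Lgr5. The labels give neither the sort gate, nor the age of the mice, nor whether each library is a separate animal, and p-values therefore cover only the spread between libraries, which may be technical. In bulk samples such as these, fewer cells of a type and less RNA per cell cannot be told apart.

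Total counts ran from 119045864 to 162951666 at 14 days, from 27336935 to 256569828 at 6 days and from 29108107 to 95464249 in control. The submitters' sample identifiers form 3 numerical ranges, and no label calls them batches. Range C holds the 3 14-day libraries, range B holds 6-day libraries 2, 5 and 7 and control 4, and range A holds the other 5 6-day libraries and the other 3 controls. Range C and 14 days cannot be told apart. Summed levels of 6 basal keratinocyte markers ran from 17483 to 34073 CPM (the read count relative to a TMM-corrected library size) at 14 days, from 16001 to 27458 CPM at 6 days and from 10883 to 18797 CPM in control. Ptch1, a target and receptor of the pathway that carries conditional alleles in all groups, averaged 87.1 CPM at 14 days, 246 CPM at 6 days and 1069 CPM in control.

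RAB27 is a small GTPase that sits on secretory granules, melanosomes and related organelles. In its active form it recruits effectors that either tether the organelle to a myosin motor or dock it at the plasma membrane. The best known case is the melanosome, which RAB27A, melanophilin and myosin Va hold in the actin-rich periphery of the melanocyte. The Slac2 effectors (melanophilin, exophilin-5 and MYRIP) and the synaptotagmin-like effectors share a RAB27-binding domain. MYRIP links RAB27A to myosin VIIa on melanosomes of the retinal pigment epithelium, and binds exocyst subunits and protein kinase A in secretory cells.

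Myrip, which encodes the Slac2-c effector, is Entrez Gene 245049 on chromosome 9 (120303520 to 120476101, plus strand, GRCm38). The genome annotation places 2 processed pseudogenes, Gm15566 and Gm15565, within that span. Mlph, which encodes the Slac2-a effector melanophilin, lies on chromosome 1 (90915024 to 90951142, plus strand). Promoter windows, from 250 bases before to 50 after a start site, were available for 8 of the 10 genes from RefSeq on GRCm38.p6. Those of Myrip and Mlph are shown because these paralogous effectors had the lowest fitted 14-day values of the 10 genes, and they differ widely in base composition. Capitals mark matches of the GC box GGGCGG on either strand (CCGCCC where it reads in reverse) and, in Mlph, of the E-box CACGTG.
Myrip, chr9:120303823-120304122, plus strand: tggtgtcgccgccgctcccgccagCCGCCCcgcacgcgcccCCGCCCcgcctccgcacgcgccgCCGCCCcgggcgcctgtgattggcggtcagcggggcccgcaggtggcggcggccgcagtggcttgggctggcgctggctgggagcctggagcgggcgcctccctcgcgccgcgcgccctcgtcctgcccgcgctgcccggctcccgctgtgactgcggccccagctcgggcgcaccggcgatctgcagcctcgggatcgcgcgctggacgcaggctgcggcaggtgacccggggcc
Mlph, chr1:90914850-90915149, plus strand: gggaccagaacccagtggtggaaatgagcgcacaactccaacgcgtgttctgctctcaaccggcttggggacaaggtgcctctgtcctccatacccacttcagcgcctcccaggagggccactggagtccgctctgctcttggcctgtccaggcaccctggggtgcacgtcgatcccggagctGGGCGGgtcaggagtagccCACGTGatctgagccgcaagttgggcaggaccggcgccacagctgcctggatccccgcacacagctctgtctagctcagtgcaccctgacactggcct

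The Myrip window has 81.7% G or C and 48 CpG dinucleotides, and 99.4% of the 32851 RefSeq promoter windows have a lower G or C content. Its 3 GC boxes are at positions -226, -209 and -186 relative to the start site, all on the reverse strand. The Mlph window has 64.3% G or C and 15 CpG, with a GC box at position -67 and an E-box at position -48. Of all windows 35.7% hold a GC box and 7.15% hold CACGTG on either strand. The GLI motif GACCACCCA, searched on both strands and with no overlap with the other motifs, is in 0.253% of all windows and in none of the 10 windows of the 8 genes. A match is a description of letters, not of a bound site.

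Myrip was high in the control tumours and close to the counting limit after 14 days of vismodegib. At 14 days the 3 libraries held 2, 1 and 24 Myrip counts, which are 0.0137, 0.00776 and 0.202 CPM. At 6 days libraries 1 to 8 stood at 0.887, 0.259, 1.21, 4.94, 0.18, 0.42, 6.68 and 0.581 CPM. In control libraries 1 to 4 it stood at 11.2, 55.6, 25 and 113 CPM. Every treated library was below every control library, with the highest 6-day library (6.68 CPM) below the lowest control (11.2 CPM). The 14-day and 6-day groups overlapped, because the third 14-day library exceeded the lowest 6-day library. The exact Poisson 95% interval was 0.129 to 0.3 CPM in the third 14-day library, 6.35 to 7.02 CPM in 6-day library 7 and 10.2 to 12.4 CPM in control 1, and covers counting error only.

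The group means of Myrip were 0.0745 ± 0.11 CPM at 14 days (SD, n = 3), 1.9 ± 2.48 CPM at 6 days (SD, n = 8) and 51.3 ± 45.4 CPM in control (SD, n = 4). The fitted log2 fold change against control was -9.44 (SE 1.86) at 14 days and -4.74 (SE 0.98) at 6 days, a fold size of 693 and 26.8. Between 14 and 6 days it was -4.69 (SE 1.48). Both comparisons against control share the 4 control libraries. Within range A the 6-day value was -4.24, and within range B, which holds 1 control, it was -5.55. Single libraries set the size: against control at 14 days it was -12.02 without 14-day library 3 and -8.69 without control 4, at 6 days it was -5.44 without 6-day library 7 and -4.0 without control 4, and between 14 and 6 days it was -7.28 without 14-day library 3 and -4.0 without 6-day library 7.

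**Figure D1:**
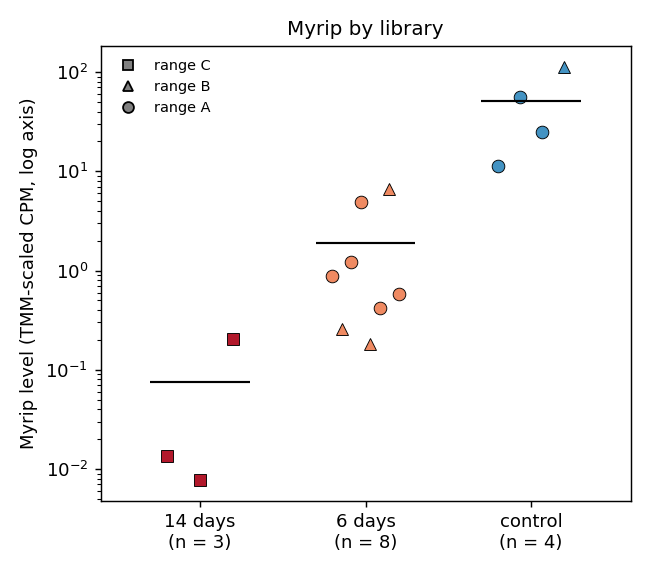
Myrip level in each library (TMM-scaled CPM, log axis) at 14 days, at 6 days and in control, with horizontal lines at the group means and point shapes for the identifier ranges. All 11 treated libraries lie at or below 6.68 CPM and all 4 controls at or above 11.2 CPM.

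Levels can be set side by side between genes only per length, as the deposited RPKM (reads scaled for gene length and library size, adjusted by a size factor). On that scale Sytl1 was the most abundant of the 10 genes in every group. It averaged 80.5 ± 24.3 RPKM at 14 days, 73.2 ± 18.8 RPKM at 6 days and 69.8 ± 25.6 RPKM in control, and made up 88.2%, 88.4% and 79.5% of the summed level of the 10 genes in those groups. Myrip ranked 10th at 14 days (0.0101 ± 0.0149 RPKM), 9th at 6 days (0.254 ± 0.332 RPKM) and 2nd in control (7.08 ± 6.3 RPKM). At 14 days Myo5a (3.2 ± 0.235 RPKM) and Rab27a (2.83 ± 0.678 RPKM) followed Sytl1, then Myo7a (1.44 ± 0.816 RPKM), Sytl4 (1.18 ± 0.434 RPKM) and Rab27b (1.16 ± 0.878 RPKM), then Sytl2 (0.649 ± 0.395 RPKM), Mlph (0.239 ± 0.121 RPKM), Sytl5 (0.0374 ± 0.0297 RPKM) and Myrip. Neighbours in that order differed by less than the larger of their SDs, except Sytl1 and Myo5a, Rab27a and Myo7a, Sytl2 and Mlph, and Mlph and Sytl5. At 6 days the order after Sytl1 was Myo5a (3.61 ± 1.58 RPKM), Rab27a (1.9 ± 0.858 RPKM), Myo7a, Mlph, Sytl4, Sytl2, Rab27b, Myrip and Sytl5, and below Rab27a no neighbours differed by more than the larger SD. In control Myo5a (3.78 ± 2.26 RPKM), Rab27a (2.33 ± 1.8 RPKM), Mlph (1.91 ± 2.47 RPKM) and Myo7a (1.27 ± 1.09 RPKM) came after Myrip. Below Sytl1 no neighbours in the control order differed by more than the larger SD. Sytl2, Sytl4 and Rab27b stood at 0.459 to 0.617 RPKM there, and Sytl5 at 0.00144 RPKM.

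**Figure D2:**
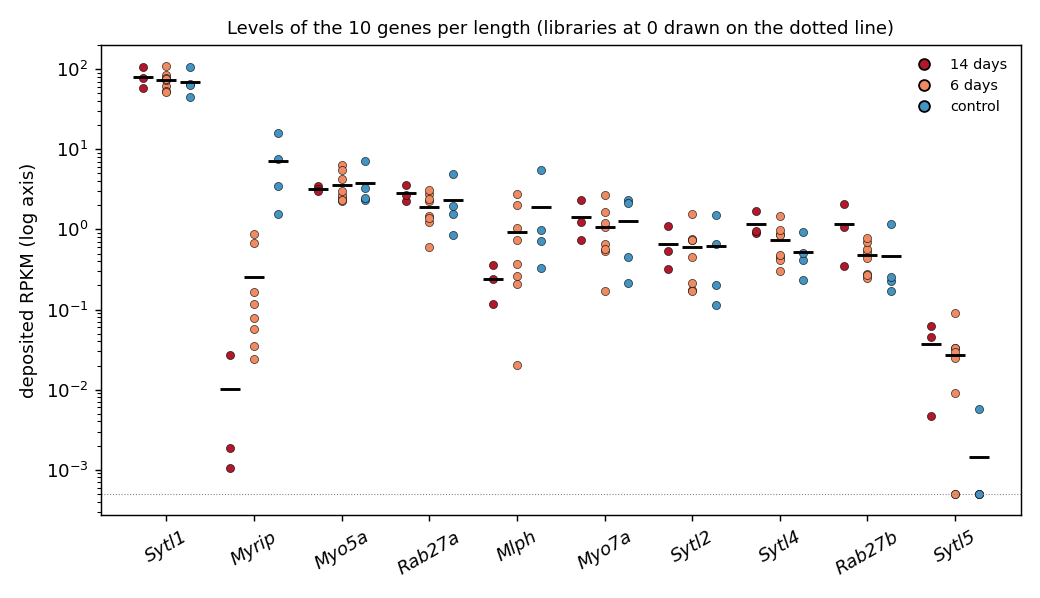
Deposited RPKM (log axis) of the 10 genes in every library, ordered by the control mean, with 14 days, 6 days and control from left to right and short lines at the group means. Sytl1 is at or above 44.72 RPKM in every library, and Myrip takes the lowest place at 14 days and 2nd place in control.

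None of the 9 other genes passed the test in any comparison. By edgeR's quasi-likelihood test with Benjamini-Hochberg adjustment over all genes, 0 of 9 were called at 14 days against control, where 6.6% of all tested genes were called. The count was also 0 of 9 at 6 days against control (background 1.26%) and 0 of 9 at 14 against 6 days (background 3.89%). At an unadjusted p under 0.05 there were 3, 1 and 1 of the 9 in those comparisons. DESeq2 called 1 (Mlph, lower) at 14 days against control and limma-voom called 2 (Sytl4 and Sytl5, higher), and both tools called 0 in the other comparisons. The groups did not overlap for 1 of 9 genes at 14 days against control (Sytl4, higher), where they did not for 23.4% of all tested genes. They overlapped for all 9 at 6 days against control (background 2.69%) and at 14 against 6 days (background 11.7%). The median log2 fold change of the 9 was 0.24, 0.01 and 0.42 in the same order, beside -0.02, 0.03 and -0.06 over all tested genes.

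**Figure D3:**
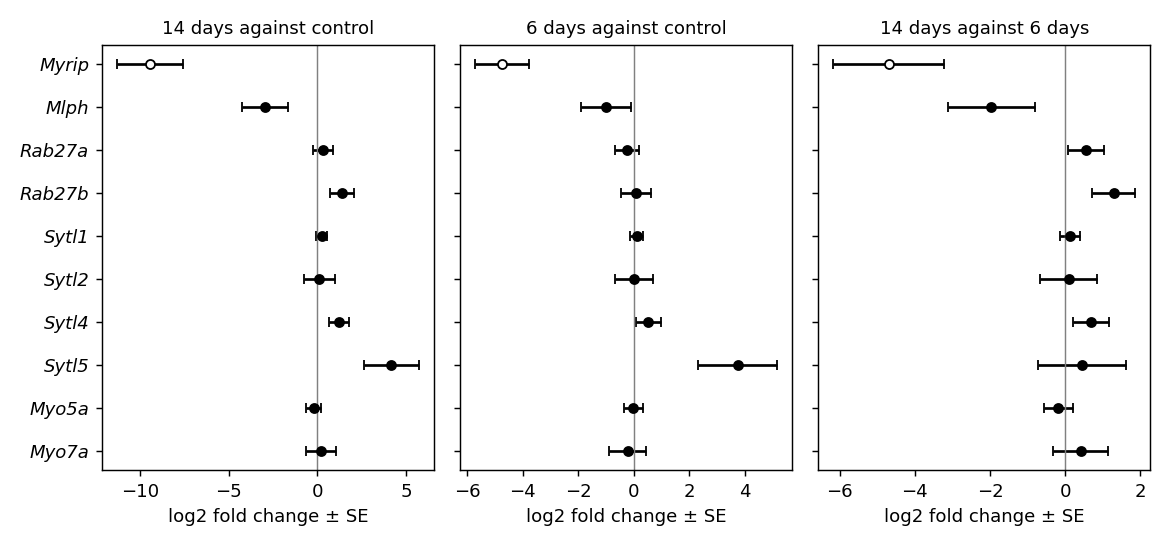
Log2 fold change with its SE of each gene in the 3 comparisons, from 1 fit over 15 libraries. Myrip (open circle) was chosen by these contrasts and is a description, and none of the 9 filled circles passed the test.

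The GTPases themselves were present in every library. Rab27a (Entrez Gene 11891, chromosome 9, 73044810 to 73097623), which encodes the form that carries melanosomes and lytic granules, had 20.28, 12.99 and 15.05 CPM at 14 days. At 6 days it ran from 3.456 to 18.06 CPM with a median of 10.57 CPM, and in control it stood at 4.743, 8.763, 10.87 and 27.37 CPM. The 14-day values lay within the control span, and the log2 fold change was 0.31 (SE 0.55, edgeR adjusted p = 0.785) at 14 days and -0.25 (SE 0.44, adjusted p = 0.928) at 6 days. A processed pseudogene, Gm27186, lies within the span of Rab27a, and its likeness to Rab27a was not examined. The counts are of uniquely aligned reads, so reads of any near-identical copy may be lost.

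Rab27b, which encodes the second RAB27 form, common in secretory epithelia and platelets, had 21.91, 3.663 and 11.11 CPM at 14 days. At 6 days it ran from 2.619 to 8.267 CPM with a median of 5.137 CPM, and in control it stood at 12.06, 2.406, 1.781 and 2.595 CPM. Control 1 lay above every 6-day library, whereas the other 3 controls lay below the lowest 6-day value. The log2 fold change was 1.38 (SE 0.68, adjusted p = 0.239) at 14 days against control and 1.29 (SE 0.58, adjusted p = 0.197) at 14 against 6 days. Without control 1 the 14-day value was 2.44 (adjusted p = 0.0298 by edgeR), the one left-out fit in which any of the 9 genes was called.

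Among the Slac2 effectors, Mlph had 0.6362, 1.979 and 1.321 CPM at 14 days. At 6 days it ran from 0.1106 to 14.97 CPM with a median of 3.025 CPM, and in control it stood at 3.767, 1.812, 5.342 and 29.79 CPM. The lowest control lay within the 14-day span, and control 4 stood apart from the other controls. The log2 fold change was -2.96 (SE 1.29, adjusted p = 0.181 by edgeR, and 0.0423 by DESeq2) at 14 days and -1.0 (SE 0.90, adjusted p = 0.774) at 6 days. Without control 4 the 14-day value was -1.48, so that this library decided its size.

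The third Slac2 gene, Exph5, encodes exophilin-5 (Slac2-b), a RAB27B effector whose loss in humans causes skin fragility. It was no member of the 10 but was on a list of other pathway genes. It had 103.3, 69.5 and 63.34 CPM at 14 days, ran from 24.09 to 39.62 CPM at 6 days, and stood at 15.99, 21.8, 17.53 and 28.19 CPM in control. All 14-day libraries were above all others. Exph5 rose at 14 days against control (log2 fold change 1.91, SE 0.24, adjusted p = 0.0017 by edgeR) and against 6 days (1.25, SE 0.20, adjusted p = 0.00843), while the 6-day value of 0.67 (SE 0.20) did not pass (adjusted p = 0.126). Of the summed RPKM of the 3 Slac2 genes, Exph5 made up 94.1 to 98.7% at 14 days, 52.3 to 96.2% at 6 days and 10.2 to 37.8% in control. Myrip made up 0.017 to 0.49% at 14 days, 0.575 to 17.3% at 6 days and 42.8 to 77.7% in control. Mlph made up 1.32 to 5.84% at 14 days, 0.779 to 44.9% at 6 days and 3.42 to 23.5% in control. All 3 shares are descriptions, since their sum contains Myrip, the gene chosen by these contrasts.

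The synaptotagmin-like effectors dock RAB27 vesicles at the plasma membrane through paired C2 domains. Sytl1 (chromosome 4, 133253090 to 133263087, minus strand) had 287.1, 158.6 and 209.8 CPM at 14 days, ran from 141.6 to 298.9 CPM at 6 days, and stood at 171.8, 171.3, 119 and 278.7 CPM in control. The 3 groups overlapped along most of their span. The log2 fold change was 0.24 (SE 0.30, adjusted p = 0.69) at 14 days and 0.11 (SE 0.24, adjusted p = 0.946) at 6 days, the smallest SE of the 10 genes in both.

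Sytl2 (chromosome 7, 90302211 to 90410719), which encodes a docking effector of melanosomes and secretory granules, had 3.53, 12.11 and 5.915 CPM at 14 days. It ran from 1.892 to 17.21 CPM at 6 days and stood at 2.141, 1.248, 7.029 and 16.12 CPM in control. Every group held both low and high libraries, and the log2 fold change was 0.11 (SE 0.86) at 14 days and 0.01 (SE 0.69) at 6 days.

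Sytl4 (X chromosome, 133936385 to 133981821), which encodes granuphilin, a docking factor of insulin granules, had 5.521, 10.3 and 5.739 CPM at 14 days. It ran from 1.816 to 8.968 CPM at 6 days and stood at 2.439, 3.03, 1.406 and 5.414 CPM in control. The lowest 14-day library lay just above the highest control. The log2 fold change of 1.22 (SE 0.55) at 14 days did not pass (adjusted p = 0.195 by edgeR, and 0.0486 by limma-voom), and at 6 days it was 0.53 (SE 0.45, adjusted p = 0.751).

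Sytl5 (X chromosome, 9747622 to 9998864) was near the counting limit. It had 65, 6 and 74 counts at 14 days, 0, 29, 3, 35, 83, 7, 70 and 0 counts in 6-day libraries 1 to 8, and 0, 0, 0 and 5 counts in controls 1 to 4. The 3 controls and the 2 6-day libraries at 0 were all in range A, where the exact Poisson 95% interval of a count of 0 reaches up to 0.113 CPM at 6 days and 0.115 CPM in control. The second 14-day library (0.0466 CPM) was below that limit. The fitted log2 fold change of 4.18 (SE 1.56) at 14 days rests on 5 counts in the controls and did not pass (adjusted p = 0.121 by edgeR, and 0.042 by limma-voom).

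The motor genes had close group means and a wide spread between libraries. Myo5a (chromosome 9, 75069799 to 75223688), which encodes myosin Va, had 56.88, 52.9 and 49.39 CPM at 14 days. It ran from 37.39 to 104.7 CPM at 6 days and stood at 36.86, 40.01, 53.71 and 114.5 CPM in control. The 14-day libraries lay close together inside the span of both other groups. Against control the log2 fold change was -0.21 (SE 0.43, adjusted p = 0.82). Processed pseudogenes on the opposite strand, Gm9719 and Gm16353, lie within Myo5a, and strand handling is not given in the sources used here.

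Myo7a (chromosome 7, 98051054 to 98119522, minus strand), which encodes myosin VIIa, the motor that binds MYRIP, had 7.019, 22.65 and 12.03 CPM at 14 days. It ran from 1.652 to 26.04 CPM at 6 days and stood at 4.201, 2.05, 21.9 and 19.71 CPM in control. The groups overlapped, and the log2 fold change was 0.22 (SE 0.83, adjusted p = 0.91) at 14 days and -0.21 (SE 0.67, adjusted p = 0.964) at 6 days. A log2 change of 1 in either direction lay within 2 SE of both values.

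Several of these genes differed by identifier range. At 6 days Mlph, Rab27a, Sytl2, Myo5a and Myo7a were higher in each of the 3 range B libraries than in each of the 5 range A libraries, 5 of the 10 genes, as were 22.4% of all tested genes. Myo5a ran from 72.18 to 104.7 CPM in range B and from 37.39 to 49.85 CPM in range A. Mlph ran from 5.714 to 14.97 CPM in range B and from 0.1106 to 4 CPM in range A. Control 4, the one control in range B, was the highest control for all of the 10 genes except Rab27b and Myo7a. Within range A the 6-day log2 fold change was -0.05 for Rab27a, -0.05 for Myo5a and -1.06 for Mlph, and within range B it was -0.80, -0.35 and -1.49 in the same order. The difference of the 6-day contrast between ranges passed for none of the 10 genes, with 12 of 20350 genes called in that test. With range B as a covariate Rab27a was called higher at 14 against 6 days (log2 fold change 1.10, adjusted p = 0.0479 by edgeR).

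Melanocyte markers also varied between libraries, and Mlph, Rab27a, Myo5a and Myo7a are known from melanocytes. The 10 markers, none of them at 0 in all libraries, summed to 59.4 to 406.4 CPM at 14 days, 87.01 to 936.2 CPM at 6 days and 45.27 to 716.4 CPM in control. None of the 10 was called in any comparison by edgeR, and 1 of them, at 6 days against control, had an unadjusted p under 0.05. The fitted values leaned to 1 side at 14 days. They were negative for 9 of 10 against control (median log2 fold change -0.70) and for 10 of 10 against 6 days (median -0.73). Over all tested genes the medians were -0.02 and -0.06. At 6 days against control 4 of 10 were negative (median 0.12). Control 3 had the highest control sum (716.4 CPM) and the highest Myo7a, 6-day library 2 had the highest 6-day sum (936.2 CPM) and the highest Mlph, Sytl2, Myo5a and Myo7a of its group, and control 2 had the lowest control sum (45.27 CPM) and the lowest Mlph, Sytl2 and Myo7a of its group. In other libraries the order of the genes differed in part from that of the sums. Control 4, whose sum (449.3 CPM) was below that of control 3 alone, was the highest control for Mlph, Rab27a, Sytl2 and Myo5a. The highest 6-day Rab27a was in library 7, whose sum (428.8 CPM) was below that of library 2. The lowest 14-day sum (59.4 CPM) was in 14-day library 1, which had the highest Rab27a and Myo5a of its group. It also had the lowest Mlph, Sytl2 and Myo7a of its group. In 6-day library 8, which had the lowest 6-day sum (87.01 CPM), Mlph and Rab27a were the lowest of the group, while Sytl2, Myo5a and Myo7a were not. The part of melanocytes in these levels was not tested. In controls 1 to 4 the melanocyte sum was 160.2, 45.27, 716.4 and 449.3 CPM, and Myrip stood at 11.2, 55.6, 25 and 113 CPM in the same libraries.

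**Figure D4:**
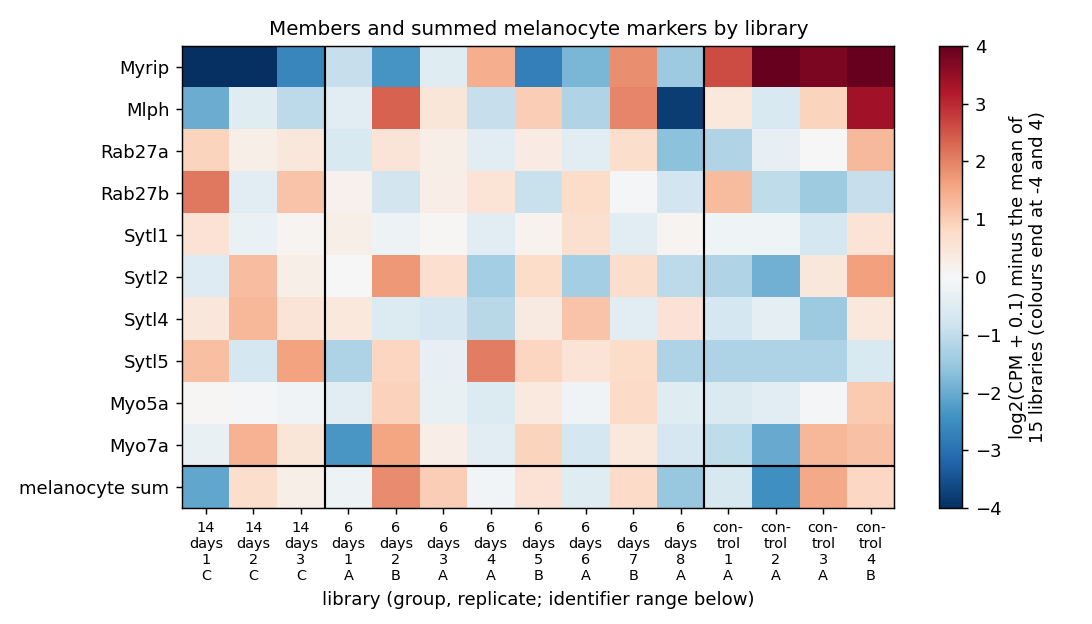
Log2(CPM + 0.1) of the 10 genes and of the summed melanocyte markers in each library, minus the mean of the 15 libraries. Myrip separates the 4 controls from the treated libraries, while Mlph, Sytl2, Myo5a and Myo7a are highest in 6-day library 2 or in control 4.

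The rest of the pathway was described with 51 further genes in 6 lists, of which 47 were tested. These lists were chosen with earlier results of these data known. At 14 days against control 5 of 47 rose and 0 fell, where 3.25% of all tested genes rose. At 14 against 6 days 3 of 47 rose and 0 fell (background 2.14%). At 6 days against control edgeR called 0 of 47, with 7 at an unadjusted p under 0.05, DESeq2 called 1 and limma-voom called 3. The median log2 fold change in those comparisons was 0.20, 0.30 and 0.09, beside -0.02, -0.06 and 0.03 over all tested genes.

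Of the 4 tested other RAB27 effectors, Exph5 and Unc13d rose at 14 days. Unc13d, which encodes the granule priming factor Munc13-4, averaged 95.6 ± 9.94 CPM at 14 days, 51.2 ± 21.7 CPM at 6 days and 35.6 ± 13.3 CPM in control (log2 fold change 1.42, SE 0.39, adjusted p = 0.0417 by edgeR). It was also the most abundant of that list per length, at 16.3 RPKM at 14 days, 8.72 RPKM at 6 days and 6.22 RPKM in control. Of the 7 related RABs that were tested, Rab3d rose. It encodes a secretory granule RAB that shares effectors with RAB27, and averaged 372 ± 65.7 CPM at 14 days, 202 ± 33.5 CPM at 6 days and 129 ± 24 CPM in control. Its log2 fold change was 1.53 (SE 0.20, adjusted p = 0.00173 by edgeR) against control and 0.88 (SE 0.17, adjusted p = 0.0174) against 6 days. At 6 days against control it was 0.65 (SE 0.17, adjusted p = 0.0694). Rab11a, which encodes a recycling endosome RAB, was the most abundant of that list per length in control, at 69.8 RPKM at 14 days, 50.5 RPKM at 6 days and 55.1 RPKM in control, and was not called.

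Among the 7 regulators of RAB27, Tbc1d10b, which encodes a GTPase-activating protein of RAB27, rose by a small amount, with 125 ± 19.8 CPM at 14 days, 93.3 ± 6.45 CPM at 6 days and 84.3 ± 3.48 CPM in control (log2 fold change 0.57, SE 0.13, adjusted p = 0.0212 by edgeR). Its relative Tbc1d10a was the most abundant of the list, at 67.5 RPKM at 14 days, 58.4 RPKM at 6 days and 70.8 RPKM in control, and was not called. The exchange factor gene Madd and the prenylation genes Rabggta, Rabggtb, Chm and Chml were not called either.

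The exocyst tethers vesicles at the plasma membrane, and it and the regulatory subunits of protein kinase A bind MYRIP. Exoc6b rose, with 154 ± 23.2 CPM at 14 days, 78.2 ± 13.3 CPM at 6 days and 70.8 ± 15.7 CPM in control. Its log2 fold change was 1.12 (SE 0.21, adjusted p = 0.00754 by edgeR) against control and 0.98 (SE 0.18, adjusted p = 0.0122) against 6 days. The fitted value at 14 days against control was positive for 10 of the 11 genes of this list, with a median of 0.49, and the groups did not overlap for 7 of the 11 (23.4% of all tested genes), but 1 of them passed. Exoc7 was the most abundant of them per length, at 34.1 RPKM at 14 days, 25.3 RPKM at 6 days and 23.2 RPKM in control. None of the 5 other myosins and none of the 13 SNARE genes that were tested was called by edgeR in any comparison. At an unadjusted p under 0.05 there was 1 of the myosins at 14 days, none at 6 days and 1 between the treated groups, and there were 4, 2 and 7 of the SNARE genes. Vamp8, which encodes a granule SNARE, was the most abundant of its list per length (93.8 RPKM at 14 days, 142 RPKM at 6 days and 129 RPKM in control).

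**Figure D5:**
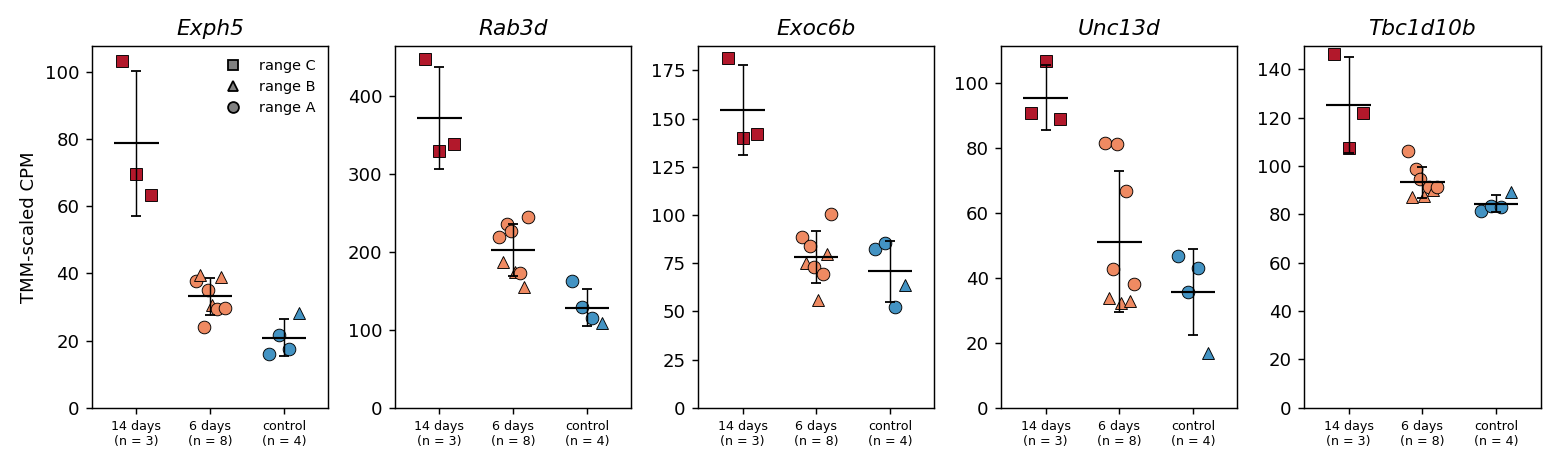
TMM-scaled CPM per library of the 5 further pathway genes that rose at 14 days against control, with group means and SD and point shapes for the identifier ranges. In each panel the 3 libraries at 14 days lie above all 8 at 6 days and all 4 controls. The genes were chosen by their rise against control. Groups did not overlap for 23.4% of all tested genes at 14 days against control and for 11.7% at 14 against 6 days. Unc13d and Tbc1d10b did not pass at 14 against 6 days (adjusted p = 0.13 and 0.0561 by edgeR).

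Like these 5 genes, myeloid markers were higher at 14 days when summed. At 6 days against control the fitted value was negative for 8 of the 10 myeloid markers (median log2 fold change -0.53). The 5 genes had positive values there, from 0.14 (Exoc6b) to 0.67 (Exph5), none of them called. At 6 days every myeloid marker but Cd68 averaged at most 0.515 CPM, and Adgre1 was at 0 in all 8 libraries. For markers other than Cd68 the signs at 6 days against control therefore rest on low 6-day counts. The 10 markers summed to 25.99 to 40.01 CPM at 14 days, 2.184 to 10.33 CPM at 6 days and 4.129 to 15.75 CPM in control, and 3 of the 10 (Adgre1, Itgam and C1qb) rose at 14 days against control, where 3.25% of all tested genes did. At 14 against 6 days 4 of the 10 rose (Csf1r, Adgre1, C1qa and C1qb, background 2.14%). Ptprc, the pan-leukocyte marker, averaged 0.605 ± 0.164 CPM at 14 days, 0.0454 ± 0.101 CPM at 6 days and 0.466 ± 0.838 CPM in control. Its control mean came mostly from control 3, with 0, 0, 1.718 and 0.1454 CPM in controls 1 to 4. The part of myeloid cells in the 5 genes was not tested. Of the 6 mast cell markers, 3 were at 0 in all libraries. Of the 6 keratinocyte markers, 2 (Itga6 and Col17a1) rose at 14 days against control as well, where 3.25% of all tested genes did. Against 6 days 1 of them, Itga6, rose (background 2.14%). Krt5, Krt14, Trp63 and Epcam were not called, and Epcam averaged 481 CPM at 14 days and 616 CPM in control.

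The calls differed in how far they rested on single libraries. Exph5, Rab3d and Exoc6b were called at 14 days against control in all 15 fits that left out 1 library. Unc13d was not called without control 2, 3 or 4 (adjusted p = 0.0869, 0.0726 and 0.0735 by edgeR), without 14-day library 1, 2 or 3 (0.108, 0.111 and 0.0947) or without 6-day library 3 (0.0516). Tbc1d10b was not called without control 2 or 3 (0.064 and 0.0716) or without 14-day library 1 or 3 (0.128 and 0.0629). Between 14 and 6 days no gene of the lists was called without 14-day library 1 (adjusted p = 0.102 for Exph5, 0.219 for Rab3d and 0.154 for Exoc6b), and without 14-day library 3 Exph5 alone was called (0.0629 for Rab3d and 0.0581 for Exoc6b).

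The genes whose levels followed Myrip most closely came from outside the pathway. Over all 15 libraries, among 12891 genes that averaged 1 CPM or more, the highest Pearson correlations of log2 CPM with Myrip were 0.95 for Lap3, 0.94 for Sms-ps and Scnn1b, 0.93 for Ramp1, Hmga2, Rpp25l and Cltb, and 0.91 for Prr5. With the group means taken off they were between 0.67 and 0.82, over libraries that share group, depth and identifier range. Without the 2 libraries farthest in Myrip, 14-day library 2 and control 4, they were between 0.90 and 0.95. Scnn1b, which encodes a subunit of the epithelial sodium channel, averaged 20.8 ± 8.73 CPM at 14 days, 82.8 ± 71.4 CPM at 6 days and 324 ± 132 CPM in control. Lap3, which encodes a leucine aminopeptidase, averaged 128 ± 25.7 CPM at 14 days, 279 ± 142 CPM at 6 days and 881 ± 190 CPM in control. Hmga2, which encodes a chromatin protein of embryonic and tumour cells, averaged 0.166 ± 0.0853 CPM at 14 days, 1.25 ± 1.02 CPM at 6 days and 5.16 ± 3.1 CPM in control. Sms-ps is a pseudogene of Sms, so its reads are uncertain. Of the Hedgehog readouts, Ptch1 had r = 0.84, Hhip 0.79 and Gli1 0.67, and with the group means taken off 0.63, 0.53 and 0.40. Myrip was chosen as low in both treated groups, so any gene lower in them correlates with it over all libraries by that choice. Of the other members, 8 averaged enough to be compared and had r between -0.59 (Sytl4) and 0.42 (Mlph), while Sytl5 was too low. These correlations are descriptions over libraries of 3 groups.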

How the data were processed

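PolyA RNA of 15 libraries was sequenced. Per the labels' protocols, sorted cells were lysed in RLT buffer, RNA was purified with an RNeasy Midi kit and its integrity was read on a Bioanalyzer. GSNAP and GRCm38 are named in the submitters' processing notes, without versions. Neither the annotation nor the handling of strand is given in the sources used here. The deposited counts are uniquely aligned reads per gene model, per the file headers, and the deposited RPKM values carry a size factor for each library. RPKM divided by count gave 1 value per gene and library factor (largest log deviation 1.4e-13). RPKM served only to compare levels between genes.

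Of 36528 Entrez identifiers, 31049 matched a RefSeq gene table of GRCm38.p6, and the 5479 others held 1.24 to 1.59% of the counts. Every pair of libraries differed by more than sampling noise (chi-square divided by its degrees of freedom at least 56.76 in 105 pairs). A floor of 3 counts was at most 0.105 CPM. Intervals are exact Poisson intervals at 95% and cover counting error only, since the counts do not mark PCR duplicates.

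The main test was edgeR 4.0.16 in R 4.3.3, by quasi-likelihood F test after TMM scaling and filterByExpr by group. All 15 libraries entered 1 fit without covariates, with 12 residual degrees of freedom and a common biological coefficient of variation of 0.579. A gene was called where its Benjamini-Hochberg adjusted p over the 18751 tested genes was under 0.05. The SE is the size of the log2 fold change divided by the square root of F. Levels are TMM-scaled CPM, and ± is the SD between libraries. The fits were tested on simulated data. Alternatives were RLE or upper-quartile scaling, DESeq2 1.42.0, limma-voom (limma 3.58.1) with sample weights, no filter, a filter of 1 CPM in 3 libraries, fits without the third group, the identifier ranges as covariate or split, and each library left out. Leaving out all of range B, the test of the difference between ranges, and the further pathway lists under every alternative were added after the data were seen.

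Groups come from the treatment label, and replicates were numbered in accession order. The members and lists were chosen with earlier results of these data known. Named genes are the 10 members, list genes that were called or had the highest RPKM of their list, and the 8 named genes with the highest Pearson correlation with Myrip (log2 CPM, prior count 0.5, genes averaging 1 CPM or more, sex-check genes left out). One gene that this rule names is not reported here. Other genes are named as markers, Hedgehog readouts, or members of a list that were not called.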

Additional observations from a re-analysis of the deposited data

Results flagged for a closer look

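In groups of 4 to 10 libraries, 5 values stood apart from the rest of their group by Dixon's criterion at 95%, out of 20 groups tested among the 10 genes. For independent, normally distributed values chance gives about 1 in 20 groups. CPM values need not be so distributed and the groups share libraries, so the number of flags cannot be set against that rate. Mlph in control 4 stood at 29.79 CPM, where the next highest control had 5.342 CPM. Rab27b in control 1 stood at 12.06 CPM, where the next had 2.595 CPM. Sytl2 in 6-day library 2 stood at 17.21 CPM, where the next had 8.537 CPM. Sytl5 in 6-day library 4 stood at 0.883 CPM, where the next had 0.3323 CPM. Sytl5 in control 4 stood at 0.05593 CPM (5 counts), where the other 3 controls were at 0.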

How the results depend on the processing

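No paired analysis was possible because the labels give no replicate numbers. Of the 9 genes other than Myrip, 0 were called at 14 days against control, with 1 under DESeq2, 2 under limma-voom and 0 to 1 with a library left out. At 14 against 6 days it was 0, with 1 with range B as a covariate and 0 with any library left out. At 6 days against control it was 0 under every alternative run. Of the further pathway genes, 5 were called at 14 days against control, with 8 under DESeq2, 16 under limma-voom, 2 when only the 2 groups compared were fitted, 15 with range B as a covariate, 9 without range B and 3 to 7 with a library left out. At 14 against 6 days it was 3, with 9 under DESeq2, 18 under limma-voom, 5 with range B as a covariate and 0 to 4 with a library left out. At 6 days it was 0, with 1 under DESeq2, 3 under limma-voom, 2 with range B as a covariate and 0 with a library left out. The cause of these differences was not tested. Of 1105 values of single genes under an alternative, 1058 kept their side of the threshold, 30 lost a call, 17 gained one and no called value reversed. These counts include Myrip, which was chosen by these contrasts, so that its part in them is a description and no test. The sign changed in 52, all of genes that were called neither as reported nor under that alternative, such as Mlph, Rab27a, Sytl1 and Sytl4 at 6 days. Unc13d was not called with upper-quartile factors (adjusted p = 0.0631 by edgeR), and Exoc6b was not called when only the 2 groups compared were fitted (adjusted p = 0.0501). The 14-day comparisons cannot be made within a range. Low counts limit Sytl5 and, at 14 days, Myrip.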
